A study of Mus musculus with 4 samples.

Results

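Ribosome biogenesis and nucleolar genes were followed in SCC7 tumours. SCC7 is a squamous carcinoma line of the mouse that serves as a transplantable model of head and neck cancer. The set held 40 named genes that share a function: the factors that transcribe, modify, fold and trim ribosomal RNA, and the transcription factor gene Myc. All 40 were found among the 17574 genes to which the RefSeq transcripts of the files were assigned. Anti-CD71 tumours came from wild-type C3H/HeN mice that carried SCC7 cells injected under the dorsal skin and were given anti-CD71, which binds the transferrin receptor, on days 6 and 9. Control tumours came from the same model without a further description of what was given in place of the antibody, and tumours of both groups were taken on day 10. There were 2 anti-CD71 and 2 control libraries of whole tumour RNA, and the labels do not say whether each came from a separate mouse, so a p-value measures only the spread between these libraries.

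Ribosome production starts in the nucleolus, where RNA polymerase I transcribes a long precursor of the ribosomal RNAs. Small nucleolar ribonucleoproteins (snoRNPs) of the box C/D and box H/ACA classes modify that precursor, and large assemblies of processing factors cut it and load ribosomal proteins onto the small and large subunits. MYC raises transcription of many of these genes, and growing tumour cells usually express them strongly.

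Values are TPM, a measure of transcript abundance that is corrected for length and brought to the same total in each library, and the read depth behind them is unknown. The list for anti-CD71 replicate 1 covers 13586 of the 59881 transcripts, or 22.69%, and a transcript that is not listed there was treated as missing and not as 0. Only Gar1, Heatr1, Tsr1 and Brix1 had at least 90% of their TPM in transcripts listed for all 4 libraries. The other 36 genes were therefore compared between anti-CD71 replicate 2 and both controls, and that test takes the spread of the lone treated library to equal that of the controls. Log2 differences between the anti-CD71 libraries had an SD of 0.294 over the genes tested in all 4 libraries, and those between the controls one of 0.222.

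Ribosome biogenesis genes lay higher in anti-CD71 replicate 2 than in the controls for most members of the set, by a small amount. Of the 40 genes, 34 (85.0%) stood above both controls and 0 below both, where 39.5% of the 11982 genes tested stood above both controls and 42.5% below both. The median log2 change was 0.23 over the 40 genes and -0.01 over all genes tested. Among the 6715 tested genes whose control mean lay within the range of the set, from 16.93 to 1110.23 TPM, 44.3% stood above both controls and the median log2 change was 0.01. Single genes rarely passed the test. Limma called 1 of the 40 genes higher at an adjusted p under 0.05, the box H/ACA gene Gar1, and 0 lower, against 0.476% of all tested genes called higher and 2.39% called lower. At an unadjusted p under 0.05, 20 of the 40 genes were higher and 0 lower by limma, where 10.7% of all tested genes were higher and 14% lower.

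**Figure D1:**
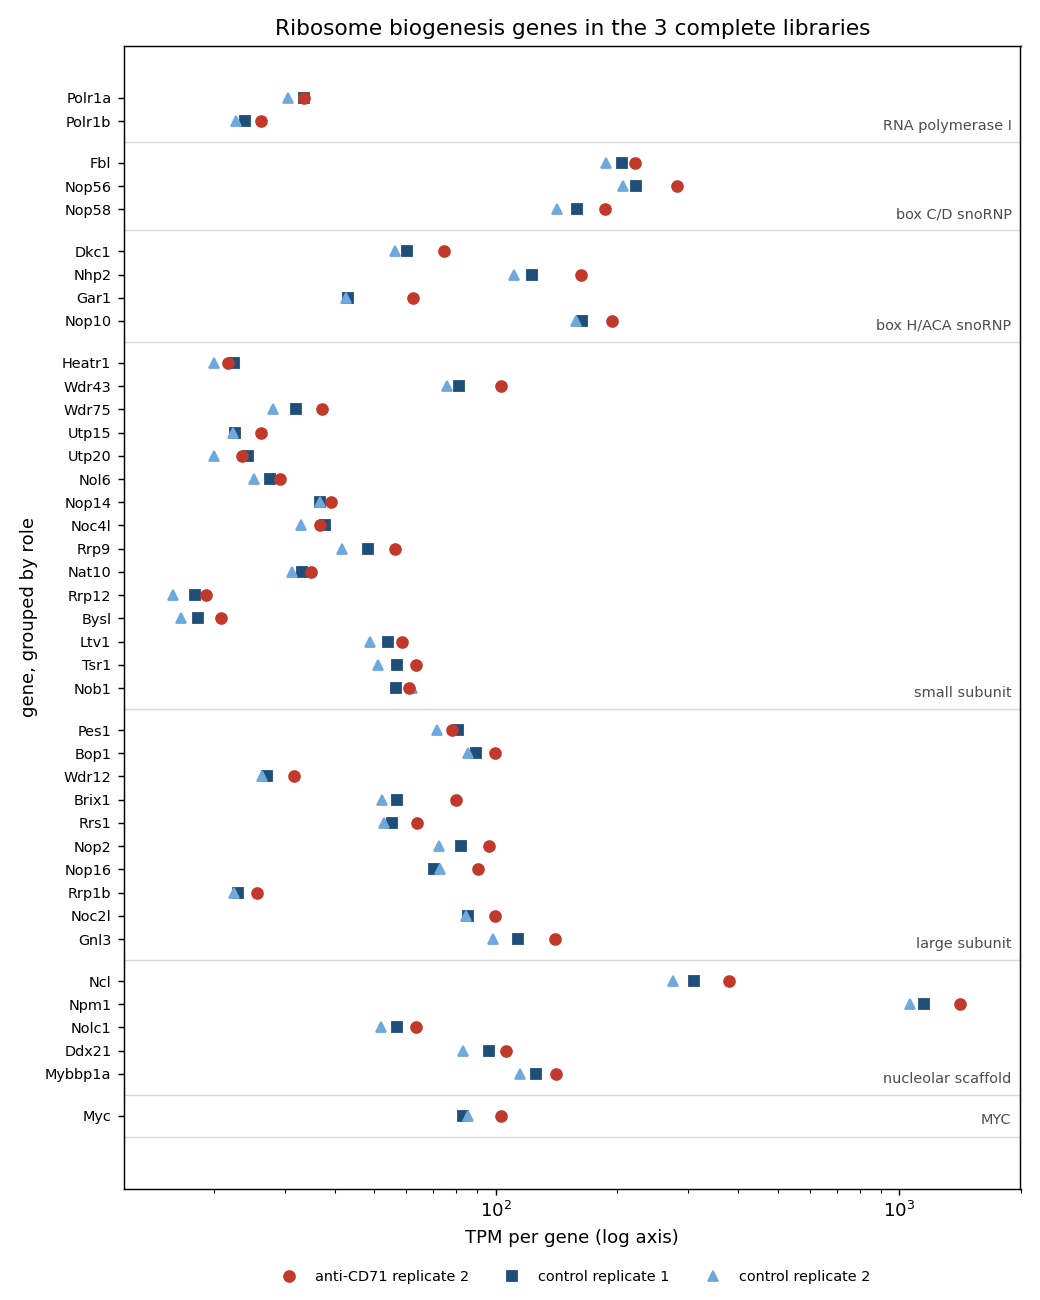
TPM per gene on a log axis for the 40 ribosome biogenesis genes, grouped by role, in anti-CD71 replicate 2 (red circles), control replicate 1 (dark squares) and control replicate 2 (light triangles), with 1 symbol per library. The red circle lies to the right of both control symbols for 34 genes, and in most rows control replicate 1 lies to the right of control replicate 2.

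The gap between the controls ran in the same direction across the set. Control replicate 1 stood above control replicate 2 for 37 of the 40 genes, where 45.8% of all tested genes did so, and the median log2 difference between the controls was 0.13 over the set and -0.01 over all tested genes. The exceptions were Nob1, Nop16 and Myc. The set summed to 4891.4 TPM in anti-CD71 replicate 2, against 4113.47 and 3804.14 TPM in control replicates 1 and 2, a ratio of 1.24 to the control mean. Without Npm1 the sums were 3473.11 TPM in anti-CD71 replicate 2 and 2960.42 and 2736.73 TPM in the controls, so the order of the libraries did not rest on that gene. The log2 change exceeded the distance between the gene's own controls for 33 of the 40 genes, and for 32.2% of all tested genes. With control replicate 2 left out the median log2 change of the set was 0.19, and with control replicate 1 left out it was 0.27.

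**Figure D2:**
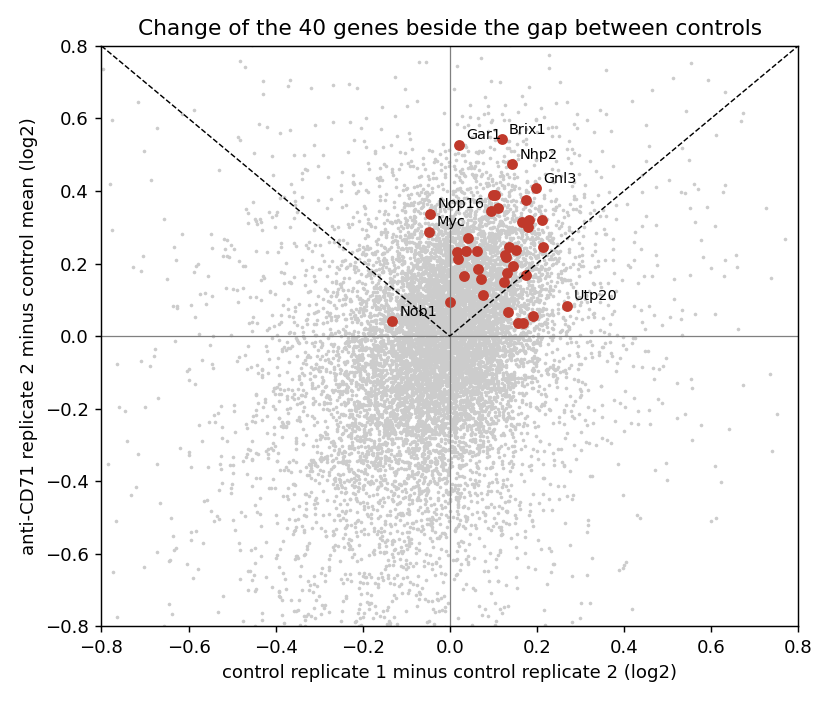
Each point is a gene, placed by the log2 difference between control replicates 1 and 2 (horizontal axis) and by the log2 change of anti-CD71 replicate 2 from the control mean (vertical axis), both on log2(TPM + 1). The 40 ribosome biogenesis genes are red and all tested genes are grey, with 501 grey points outside the axes. Above the dashed lines, where 33 of the red points lie, the change exceeds the distance between the controls.

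RNA polymerase I genes were the least changed group. Polr1a encodes the catalytic core of the enzyme and had 33.6 TPM in anti-CD71 replicate 2, against 33.6 and 30.52 TPM in the controls, level with the higher control. Polr1b, another core subunit, had 26.16 TPM in anti-CD71 replicate 2 and 23.95 and 22.75 TPM in the controls (log2 change 0.16, SE 0.09, limma adjusted p = 0.359). Neither passed the test.

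Box C/D snoRNPs place methyl groups on ribosomal RNA, and all 3 of their proteins in the set stood above both controls without passing the test. Nop56, a core protein that holds the guide RNA, had 281.03 TPM in anti-CD71 replicate 2 and 222.33 and 206.87 TPM in the controls (log2 change 0.39, SE 0.08, limma adjusted p = 0.0725). Nop58, its partner, had 187.04 TPM in anti-CD71 replicate 2 and 159.24 and 141.78 TPM in the controls (log2 change 0.31, adjusted p = 0.138). Fbl, the methyltransferase fibrillarin, had 221.48 TPM in anti-CD71 replicate 2 and 205.39 and 187.31 TPM in the controls (log2 change 0.17, adjusted p = 0.278). The distances from the higher control were 0.34, 0.23 and 0.11 on the log2 scale for Nop56, Nop58 and Fbl. For Nop58, a transcript that carries 15.78% of its TPM was listed for all libraries, with 31.68 and 26.1 TPM in anti-CD71 replicates 1 and 2 and 26.25 and 24.66 TPM in the controls. For that transcript anti-CD71 replicate 1 lay above both controls and replicate 2 between them.

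Box H/ACA snoRNPs convert uridine to pseudouridine in ribosomal RNA, and their 4 proteins had the highest median log2 change of the groups, 0.41. Gar1, a core protein of these particles, rose to 62.26 TPM in anti-CD71 replicate 2, against 43.18 and 42.57 TPM in the controls, or 1.45 times the control mean (log2 change 0.53, SE 0.08, limma adjusted p = 0.0496). The controls lay close together, and the call stood at the threshold: the adjusted p was between 0.0514 and 0.136 under the 5 alternatives that gave one. Nhp2, another core protein, had 162.69 TPM in anti-CD71 replicate 2 and 122.79 and 111.11 TPM in the controls (log2 change 0.47, SE 0.09, adjusted p = 0.0672). Dkc1, the pseudouridine synthase dyskerin, had 74.33 TPM in anti-CD71 replicate 2 and 60.28 and 56.42 TPM in the controls (log2 change 0.34, adjusted p = 0.104). Nop10, the smallest protein of the particle, had 194.24 TPM in anti-CD71 replicate 2 and 163.36 and 158.68 TPM in the controls (log2 change 0.27, adjusted p = 0.111). All 4 genes lay above both controls, and Gar1 alone passed.

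Small-subunit factors were the largest group with 15 genes, of which 11 stood above both controls and 0 passed the test, with 3 at an unadjusted p under 0.05 by limma. Their median log2 change was 0.17. Wdr43, Wdr75, Utp15 and Heatr1 belong to the UtpA complex, which binds the nascent precursor, and differences between them were not tested. Wdr43 had 102.96 TPM in anti-CD71 replicate 2 and 81.27 and 75.75 TPM in the controls (log2 change 0.39, SE 0.09, limma adjusted p = 0.0832). Wdr75 had 37.2 TPM in anti-CD71 replicate 2 and 32.04 and 28.16 TPM in the controls (log2 change 0.30). Utp15 had 26.24 TPM in anti-CD71 replicate 2 and 22.67 and 22.38 TPM in the controls (log2 change 0.21). These lay above both controls. Heatr1, a large scaffold of the same complex, had 24.92 TPM in anti-CD71 replicate 1, above both controls, and 21.77 TPM in replicate 2, between the controls at 22.43 and 20.03 TPM. Rrp9, part of a box C/D particle needed for the first cleavages of the precursor, had 56.29 TPM in anti-CD71 replicate 2 and 48.35 and 41.61 TPM in the controls (log2 change 0.32, adjusted p = 0.18).

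Of the remaining small-subunit genes, 3 lay between their controls. Utp20, a long scaffold protein, had 23.52 TPM in anti-CD71 replicate 2 and 24.4 and 20.09 TPM in the controls. Noc4l had 36.72 TPM in anti-CD71 replicate 2 and 37.76 and 32.97 TPM in the controls, and its binding partner Nop14 had 39.14 TPM in anti-CD71 replicate 2 and 36.64 and 36.63 TPM in the controls. Utp20 and Noc4l therefore lay between their controls, and Nop14 just above both. Nob1, the nuclease that trims the end of small-subunit ribosomal RNA, had 60.92 TPM in anti-CD71 replicate 2 and 56.51 and 62.04 TPM in the controls, again between them. The late maturation factors Bysl, Ltv1 and Tsr1 had log2 changes of 0.24, 0.19 and 0.24, the acetyltransferase gene Nat10 0.11, Nol6 0.15 and the export factor gene Rrp12 0.17, and these 6 lay above both controls without passing.

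Large-subunit factors stood above both controls for 9 of 10 genes, with a median log2 change of 0.23, 0 calls and 7 genes at an unadjusted p under 0.05 by limma. Brix1, an assembly factor of early large-subunit precursors, had 79.92 TPM in anti-CD71 replicate 2 and 56.89 and 52.31 TPM in the controls, or 1.46 times the control mean (log2 change 0.54, SE 0.09, limma adjusted p = 0.0556). Gnl3, the nucleolar GTPase nucleostemin, had 140.7 TPM in anti-CD71 replicate 2 and 113.45 and 98.72 TPM in the controls (log2 change 0.41, adjusted p = 0.108). Nop16 had 90.66 TPM in anti-CD71 replicate 2 and 70.43 and 72.72 TPM in the controls (log2 change 0.34, adjusted p = 0.0922). Each of these lay clear of both controls, Brix1 by 0.48 on the log2 scale. Nop2, an RNA methyltransferase, had 96.5 TPM in anti-CD71 replicate 2 and 82.18 and 72.34 TPM in the controls (log2 change 0.32, adjusted p = 0.154).

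Pes1, Bop1 and Wdr12 form the PeBoW complex that processes large-subunit RNA, and they did not line up. Wdr12 had 31.68 TPM in anti-CD71 replicate 2 and 27.12 and 26.4 TPM in the controls (log2 change 0.24). Bop1 had 99.42 TPM in anti-CD71 replicate 2 and 89.32 and 85.38 TPM in the controls (log2 change 0.19). Pes1 had 77.97 TPM in anti-CD71 replicate 2, between 80.6 and 71.64 TPM in the controls (log2 change 0.04). None of the 3 passed (limma adjusted p of 0.196, 0.234 and 0.848 for Wdr12, Bop1 and Pes1), and differences between them were not tested. Rrs1, which brings the free ribosomal RNA particle into the large subunit, and the processing genes Noc2l and Rrp1b had log2 changes of 0.23, 0.23 and 0.17.

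Nucleolar scaffold and chaperone genes included the most abundant transcripts of the set. Npm1, nucleophosmin, had 1418.29 TPM in anti-CD71 replicate 2 and 1153.05 and 1067.41 TPM in the controls (log2 change 0.35, SE 0.07, limma adjusted p = 0.0677). Ncl, nucleolin, had 379.29 TPM in anti-CD71 replicate 2 and 310.79 and 275.11 TPM in the controls (log2 change 0.37, SE 0.09, adjusted p = 0.0999). Both stood above the higher control, by 0.30 and 0.29 on the log2 scale. The RNA helicase gene Ddx21, the Myb-binding protein gene Mybbp1a and the snoRNP chaperone gene Nolc1 had log2 changes of 0.25, 0.22 and 0.22, and all 5 genes of the group stood above both controls with 0 calls and 3 genes at an unadjusted p under 0.05 by limma. Across the 40 genes the change was larger for abundant transcripts: the 20 with the higher control mean had a median log2 change of 0.32 and the other 20 one of 0.18. The rank correlation of change with control mean over the 40 genes was 0.51, a description of genes measured in the same 3 libraries.

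Myc itself had 103 TPM in anti-CD71 replicate 2 and 82.84 and 85.62 TPM in the controls (log2 change 0.29, SE 0.08, limma adjusted p = 0.116). It lay above both controls and did not pass. Its 4 RefSeq transcripts were listed in pairs of identical values, 39.23 and 12.27 TPM in anti-CD71 replicate 2, so they carry no separate evidence on its isoforms.

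Over all 4 libraries, 3 of the 4 ribosome biogenesis genes that could be compared were higher in both anti-CD71 libraries than in both controls, where 28.3% of the 1563 tested genes were. Limma called 0 of the 4 in either direction, with 3 of them higher at an unadjusted p under 0.05, against 0.832% of all tested genes called higher and 3.45% called lower. Over all tested genes the calls were 13 higher and 54 lower, or 21 higher and 36 lower with median scaling. At an unadjusted p under 0.05, 11% of all tested genes were higher and 15.6% lower, and 31.1% had both anti-CD71 libraries below both controls. Brix1 had 71.8 and 79.92 TPM in anti-CD71 replicates 1 and 2 and 56.89 and 52.31 TPM in the controls, or 75.86 ± 5.74 and 54.6 ± 3.24 TPM (SD, n = 2 each; log2 change 0.47, SE 0.09, limma adjusted p = 0.0501). Gar1 had 55.08 and 61.05 TPM in the anti-CD71 libraries and 43.18 and 42.57 TPM in the controls, summed over the transcripts listed in all files (58.06 ± 4.22 and 42.88 ± 0.43 TPM; log2 change 0.43, SE 0.08, adjusted p = 0.051). The groups of both genes did not overlap, and both fell just short of the threshold. With median scaling both passed (adjusted p = 0.0328 each), where 1.34% of all tested genes were called higher and 2.3% lower. With anti-CD71 replicate 1 left out both passed too (adjusted p = 0.0426 each), where 2.25% were called higher and 3.92% lower. Over all 13 alternatives the adjusted p of either gene was between 0.0328 and 0.348.

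Tsr1, a late small-subunit factor, had 62.76 and 63.66 TPM in the anti-CD71 libraries and 56.85 and 51.03 TPM in the controls (log2 change 0.23, SE 0.08, limma adjusted p = 0.159). Its groups did not overlap. Heatr1 had 24.92 and 21.77 TPM in the anti-CD71 libraries and 22.43 and 20.03 TPM in the controls (log2 change 0.13, SE 0.10, adjusted p = 0.468). Here anti-CD71 replicate 1 lay above both controls and replicate 2 between them. Taken one library at a time, anti-CD71 replicate 1 differed from the control mean by 0.35, 0.39, 0.22 and 0.22 on the log2 scale for Gar1, Brix1, Tsr1 and Heatr1, and anti-CD71 replicate 2 by 0.50, 0.54, 0.24 and 0.04. Both sets of differences are taken from the same controls, and for Heatr1 the value of replicate 2 lay within the gap between them.

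**Figure D3:**
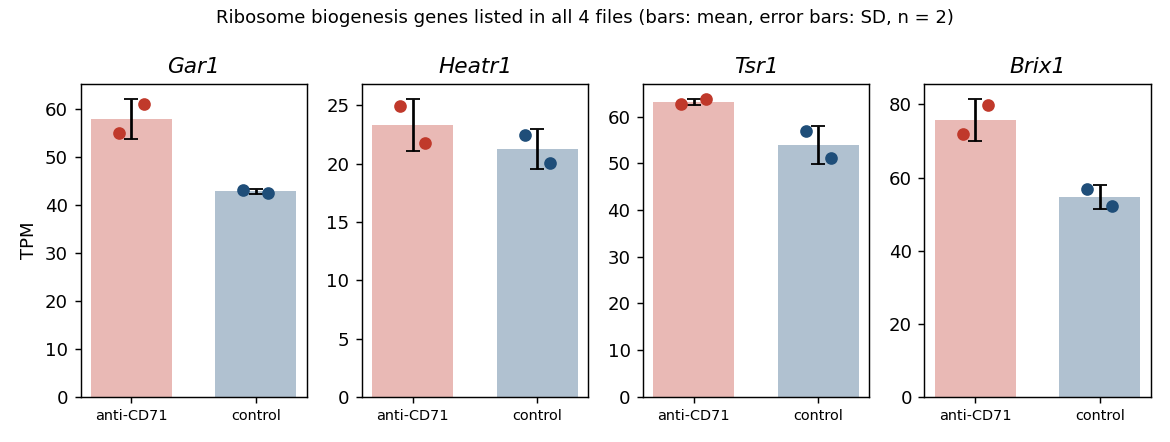
TPM of the 4 ribosome biogenesis genes listed in all 4 files, with anti-CD71 libraries in red and control libraries in blue. Bars are means, error bars are SD (n = 2 each) and points are single libraries. The points of the groups do not overlap for Gar1, Tsr1 and Brix1, and overlap for Heatr1.

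Gar1 lies on chromosome 3 (chr3:129824912-129831407) and Brix1 on chromosome 15 (chr15:10474779-10485937) in GRCm38.p6. RefSeq promoter windows of the same build, which run from 250 bases before to 50 bases after an annotated start, were found for 33 of the 40 genes. The E-box CACGTG, the site that MYC and its partner MAX bind, occurred in the windows of 7 genes (21.2%), where 8.09% of all genes in the promoter table and 11.5% of the tested genes with a window had it. The letters CCGGAAG on either strand, a core recognised by ETS-family factors, occurred for 9 genes (27.3%), against 9.93% of all genes and 20.6% of tested genes. GC boxes (GGGCGG on either strand) occurred for 69.7%, against 38.2% and 68.2%, and TATAAA on either strand for 6.06%, against 15.7% and 8.88%. These are matches of letters and not bound sites. The 7 genes with an E-box, which were Nop2, Ltv1, Utp20, Pes1, Mybbp1a, Tsr1 and Wdr43, had a median log2 change of 0.22 in anti-CD71 replicate 2 against the controls, and the 26 genes with a window and no E-box one of 0.25. Windows are shown for Gar1, Brix1 and Tsr1, whose groups did not overlap over 4 libraries, and for Nop2 and Wdr43, the E-box genes with the largest changes, to show where the letters stand. They lie at chr3:129831347-129831646 (minus strand), chr15:10485888-10486187 (minus), chr11:74897830-74898129 (plus), chr6:125131633-125131932 (plus) and chr17:71615965-71616264 (plus), are written along the gene, and have E-box and CCGGAAG matches of either strand in capitals, which do not overlap each other in these windows.
Gar1: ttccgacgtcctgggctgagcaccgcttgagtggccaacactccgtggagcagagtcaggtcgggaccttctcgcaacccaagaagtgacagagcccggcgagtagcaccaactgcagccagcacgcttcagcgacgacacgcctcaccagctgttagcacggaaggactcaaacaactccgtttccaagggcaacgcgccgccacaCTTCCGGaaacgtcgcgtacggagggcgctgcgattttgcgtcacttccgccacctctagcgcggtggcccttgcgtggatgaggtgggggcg
Brix1: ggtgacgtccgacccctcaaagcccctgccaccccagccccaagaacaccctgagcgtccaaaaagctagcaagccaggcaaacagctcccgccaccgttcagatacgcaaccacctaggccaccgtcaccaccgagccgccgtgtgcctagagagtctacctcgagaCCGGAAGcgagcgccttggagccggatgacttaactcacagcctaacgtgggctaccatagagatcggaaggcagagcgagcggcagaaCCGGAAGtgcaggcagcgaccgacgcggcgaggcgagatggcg
Tsr1: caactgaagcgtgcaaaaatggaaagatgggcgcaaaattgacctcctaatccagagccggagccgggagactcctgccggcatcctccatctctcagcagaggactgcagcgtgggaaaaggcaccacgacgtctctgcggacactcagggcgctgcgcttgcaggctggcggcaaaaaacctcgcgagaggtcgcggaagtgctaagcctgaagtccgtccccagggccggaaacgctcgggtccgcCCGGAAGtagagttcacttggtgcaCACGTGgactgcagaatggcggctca
Nop2: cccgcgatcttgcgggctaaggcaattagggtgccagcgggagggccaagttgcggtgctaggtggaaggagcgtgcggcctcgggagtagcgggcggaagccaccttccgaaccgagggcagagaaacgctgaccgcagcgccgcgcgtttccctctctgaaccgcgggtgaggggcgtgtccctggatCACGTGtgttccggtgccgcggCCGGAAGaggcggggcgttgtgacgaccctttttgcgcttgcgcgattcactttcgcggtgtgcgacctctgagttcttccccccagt
Wdr43: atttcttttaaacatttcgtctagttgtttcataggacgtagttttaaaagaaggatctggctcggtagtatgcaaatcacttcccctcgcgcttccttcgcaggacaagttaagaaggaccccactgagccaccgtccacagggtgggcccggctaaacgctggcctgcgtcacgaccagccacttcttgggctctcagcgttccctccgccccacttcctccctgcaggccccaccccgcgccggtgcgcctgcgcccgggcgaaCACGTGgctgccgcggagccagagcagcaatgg

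Gar1 and Brix1, the genes with the largest changes, have CCGGAAG matches and no E-box, whereas Nop2, Tsr1 and Ltv1 hold both. The other genes with a CCGGAAG match had log2 changes from 0.04 for Heatr1 to 0.47 for Nhp2 in anti-CD71 replicate 2. Whether genes with this match changed more than genes without it was not tested. In Tsr1 and Wdr43 the E-box starts 25 and 18 bases into the transcribed part, and in Nop2 at -60 from the start.

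Other ribosome assembly genes, listed from general knowledge of the pathway, lay higher as well. Of 46 further small-subunit factors, 35 stood above both controls in anti-CD71 replicate 2 and 4 below both, with a median log2 change of 0.17, 0 calls and 9 genes at an unadjusted p under 0.05 by limma. Of 53 further large-subunit factors, 41 stood above both controls and 3 below both, with a median of 0.16 and 1 call, Lyar. Lyar, a nucleolar zinc-finger protein, rose to 118.18 TPM in anti-CD71 replicate 2, against 80.75 and 75.59 TPM in the controls (log2 change 0.59, SE 0.08, limma adjusted p = 0.0431), with an adjusted p between 0.0452 and 0.185 under the alternatives. Over 4 libraries, 6 of 7 further small-subunit factors and 8 of 10 further large-subunit factors had both anti-CD71 libraries above both controls, with medians of 0.22 and 0.22, 0 calls, and 3 and 6 genes at an unadjusted p under 0.05 by limma.

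The remaining machinery was uneven. Other RNA polymerase I genes had a median log2 change of 0.15 with 14 of 19 above both controls, and the RNA exosome and trimming list one of 0.19 with 20 of 26 above both. RNA polymerase III genes, whose products transcribe the smallest ribosomal RNA and transfer RNAs, had a median of 0.02 with 9 of 22 above and 9 below both controls. These 3 lists had 0 calls over 3 libraries, with 8, 8 and 3 genes at an unadjusted p under 0.05 by limma. The RNA polymerase I list held genes whose products RNA polymerase III shares, and the RNA polymerase III list left them out. Those genes were Polr1c, Polr1d, Polr2e, Polr2f, Polr2h, Polr2k, Polr2l and Tbp, with log2 changes from 0.02 for Polr2f to 0.33 for Polr2l. The RNA polymerase III list also held the repressor gene Maf1 (-0.24), so the medians do not compare separate enzymes.

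The closest gene sets outside assembly moved by like amounts over 3 libraries, and the ribosome biogenesis set cannot be called particular from these counts. DNA replication genes had a median log2 change of 0.18 with 34 of 40 (85.0%) above both controls, and mitosis genes one of 0.17 with 22 of 26 (84.6%). Limma called 0 genes of either list over 3 libraries, with 14 and 7 at an unadjusted p under 0.05. Over 4 libraries the replication gene Dscc1, which helps load the sliding clamp, rose to 19.99 and 21.9 TPM in the anti-CD71 libraries, against 14.62 and 12.85 TPM in the controls (log2 change 0.58, SE 0.10, limma adjusted p = 0.047, and between 0.0328 and 0.344 under the alternatives, with 0.189 without control replicate 1, 0.344 without control replicate 2 and 0.0893 without anti-CD71 replicate 2), but 0 of 3 mitosis genes had both anti-CD71 libraries above both controls. Of 8 replication genes tested over 4 libraries, 5 had both anti-CD71 libraries above both controls (median log2 change 0.14). The 3 mitosis genes had a median log2 change of -0.08 over 4 libraries, with 1 below both controls. The 4 genes of the set had a median of 0.33 there. Cytosolic ribosomal protein genes had a lower median over 3 libraries, 0.06, with 48 of 79 above both controls and 18 below both. Over 4 libraries, 12 of 20 ribosomal protein genes had both anti-CD71 libraries above both controls and 0 had both below (median log2 change 0.10). Rpl14 (log2 change 0.35, adjusted p = 0.0474) and Rpl37 (0.36, adjusted p = 0.0474) rose among them by limma, with adjusted p between 0.0499 and 0.184 for Rpl14 and between 0.0502 and 0.184 for Rpl37 under the alternatives.

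**Figure D4:**
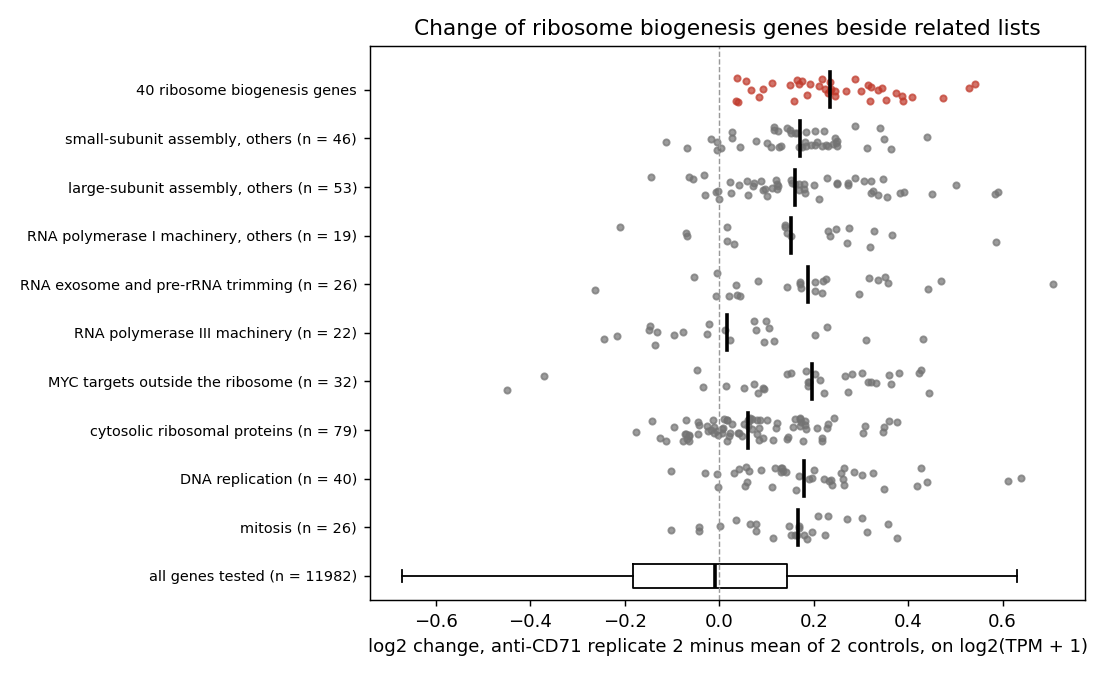
Log2 change of anti-CD71 replicate 2 from the mean of the 2 controls for each gene (points) of the ribosome biogenesis set and of related lists, with black bars at the medians. The lowest row is a box plot of all tested genes (box from the lower to the upper quartile, whiskers to the farthest value within 1.5 box lengths). The bar of the ribosome biogenesis set stands at 0.23, those of RNA polymerase III and ribosomal protein genes at 0.02 and 0.06, and that of all genes at -0.01.

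Genes of the MYC network went different ways. Mnt encodes a repressor that competes with MYC for MAX, and it fell to 11.4 and 11.78 TPM in the anti-CD71 libraries, against 17.09 and 16.53 TPM in the controls (log2 change -0.50, SE 0.08, limma adjusted p = 0.0423 over 4 libraries). The groups did not overlap, and the adjusted p was between 0.0594 and 0.343 with any 1 library left out, and between 0.0424 and 0.343 over all 13 alternatives. Mxd4, another MAX partner that represses, had 16.94 and 16.14 TPM in the anti-CD71 libraries and 22.16 and 21.1 TPM in the controls (log2 change -0.37, adjusted p = 0.0683), and is named here after its values were seen. Other repressors that pair with MAX lay the other way over 3 libraries and did not pass either: Mxd3 had 35.5 TPM in anti-CD71 replicate 2 and 27.41 and 26.66 TPM in the controls (log2 change 0.38, limma adjusted p = 0.0916), and Mxi1 had 61.13 TPM in anti-CD71 replicate 2 and 46.07 and 52.46 TPM in the controls (log2 change 0.31, adjusted p = 0.172). Over 3 libraries the list of 10 tested network genes had a median log2 change of 0.03 with 5 above and 4 below both controls, 0 calls and 4 genes at an unadjusted p under 0.05 by limma. Genes known as MYC targets outside the ribosome had a median log2 change of 0.20, with 27 of 32 (84.4%) above both controls. Of these Set, a histone chaperone gene, rose to 334.79 TPM in anti-CD71 replicate 2, against 250.86 and 240.71 TPM in the controls (log2 change 0.44, SE 0.07, limma adjusted p = 0.0491, and between 0.0511 and 0.184 under the alternatives).

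Disturbed ribosome assembly can stabilise p53 in mouse and human cells, and 15 genes of that response could be tested over 3 libraries. Their median log2 change was 0.09 with 6 above and 5 below both controls, and 6 had an unadjusted p under 0.05 by limma. Btg2, an antiproliferative gene that immediate early signals also induce, fell to 9.34 TPM in anti-CD71 replicate 2, against 20.87 and 25.95 TPM in the controls (log2 change -1.23, SE 0.15, limma adjusted p = 0.0323, and between 0.034 and 0.221 under the alternatives). It was the only gene of the list called over 3 libraries.

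Markers of other cell types moved with the same libraries, and in whole tumours fewer cells of a type cannot be told apart from less RNA per cell. The 10 macrophage markers summed to 1960.91 TPM in anti-CD71 replicate 2 and to 3750.96 and 4544.66 TPM in controls 1 and 2, the reverse of the order seen for the ribosome biogenesis sum. All 10 lay below both controls, and limma called 7 lower. Of the natural killer and cytotoxic markers, 7 of 7 tested genes were called lower, with sums over 8 genes of 71.81 TPM in anti-CD71 replicate 2 and 284.42 and 276.26 TPM in the controls. Over 4 libraries limma called 0 of the 2 that could be tested, with 1 at an unadjusted p under 0.05. Gzmb, a cytotoxic granule protease, had 79.54 and 27.62 TPM in anti-CD71 replicates 1 and 2 and 100.74 and 84.83 TPM in the controls (adjusted p = 0.241), so replicate 1 lay much closer to the controls than replicate 2. The 9 T cell markers found summed to 11.21 TPM in anti-CD71 replicate 2 and 24.64 and 26.89 TPM in the controls. Over 4 libraries the macrophage genes Csf1r and Cd14 fell as well, Csf1r to 69.38 and 66.83 TPM in the anti-CD71 libraries, against 125.77 and 156.93 TPM in the controls (limma adjusted p = 0.032). The part of these cells in the higher ribosome biogenesis values was not tested.

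The 10 squamous markers summed to 232.85 TPM in anti-CD71 replicate 2 and 156.78 and 152.77 TPM in the controls. Of the 5 that could be tested over 3 libraries, 2 stood above both controls and 2 below both. The largest rise among these was Sfn, at 19.35 TPM in anti-CD71 replicate 2 and 2.74 and 2.53 TPM in the controls (log2 change 2.49). Egfr fell (log2 change -0.34). Among squamous markers the keratins were nearly absent from the controls. Krt5 was listed at 31.4 TPM in anti-CD71 replicate 2 and at 0 in both controls, Krt14 at 36.37 TPM in anti-CD71 replicate 2 and 0.09 and 0.1 TPM in the controls, and Trp63 at 1.35 TPM in anti-CD71 replicate 2 and 0.18 and 0.32 TPM in the controls. The epithelial integrin genes were present in all of these libraries: Itga6 had 44.65 TPM in anti-CD71 replicate 2 and 44.58 and 47.12 TPM in the controls, and Itgb4 76.46 TPM in anti-CD71 replicate 2 and 93.68 and 87.43 TPM in the controls. The keratins and Trp63 thus did not show the labelled squamous type in the control tumours. Of the integrins, Itga6 lay between its controls and Itgb4 below both (log2 change -0.24). Skin and hair markers summed to 186.39 TPM in anti-CD71 replicate 2 and 1.84 and 1.94 TPM in the controls, with the hair follicle keratins Krt71 and Krt25 at 77.12 and 60.54 TPM in anti-CD71 replicate 2. The 9 neutrophil markers found summed to 586.27 TPM in anti-CD71 replicate 2 and 78.59 and 94.83 TPM in the controls. Most of the sum in anti-CD71 replicate 2 came from S100a8 and S100a9, at 265.49 and 212.99 TPM. Of the 7 neutrophil markers tested over 3 libraries, 5 stood above both controls. Mmp9 lay between its controls, and Trem1 lay below both. Krt25 was listed at 0 in anti-CD71 replicate 1. Hdc, which mast cells and basophils express too, was the only gene of the neutrophil list tested over 4 libraries. Hdc had 7.04 and 7.42 TPM in anti-CD71 replicates 1 and 2 and 2.62 and 1.32 TPM in the controls (log2 change 1.51, limma adjusted p = 0.0388). The neutrophil list as a whole was therefore not compared in anti-CD71 replicate 1. The part of skin and neutrophils in the ribosome biogenesis values was not tested for any gene of the set.

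Fibroblast markers summed to 785.45 TPM in anti-CD71 replicate 2 and 869.38 and 1212.17 TPM in the controls, and endothelial markers to 63.93 TPM in anti-CD71 replicate 2 and 77.64 and 77.2 TPM in the controls. The 7 erythroid markers found summed to 555.21 TPM in anti-CD71 replicate 2 and 1909.8 and 2149.9 TPM in the controls. Muscle markers summed to 93.41 TPM in anti-CD71 replicate 2 and 151.57 and 36.77 TPM in the controls, and fat markers to 110.24 TPM in anti-CD71 replicate 2 and 78.47 and 104.15 TPM in the controls, so the muscle sum lay between the controls and the fat sum above both.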

How the data were processed

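Bulk RNA sequencing in 4 libraries gave TPM per RefSeq transcript, written to 2 decimals, which are the authors' deposited values. Per the submitters' processing notes they refer to GRCm38.p6, and per the labels' protocols BGI extracted RNA and made the libraries. For the aligner, quantification program and filters, no name is given in the sources used here. Since depth cannot be read from TPM, there are no counting intervals or detection limits. The 3 complete files hold 59881 transcripts each and have the same TPM total within rounding, and the file of anti-CD71 replicate 1 ends inside a line that was not used. Values of 13586 shared transcripts summed to 237664.99 and 238644.66 TPM in anti-CD71 replicates 1 and 2 and 233326.01 and 232700.72 TPM in the controls.

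Names for 58425 transcripts came from a table of RefSeq genes, and TPM were summed per gene. Between 1.42% and 1.55% of TPM had no symbol and were left out. RNAs that are not protein-coding were not used, so snoRNA host genes of that kind were not analysed here. Npm1, Ncl and ribosomal protein genes have close copies or pseudogenes, and their TPM are uncertain to that extent.

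Limma 3.58.1 in R 4.3.3 was run on log2(TPM + 1) with an intensity trend, on genes with at least 1 TPM in 2 libraries, and p-values were adjusted by Benjamini-Hochberg over all genes tested. All 40 genes passed this filter over 3 libraries. Fold changes on this scale understate changes of low genes. Over 4 libraries a gene was tested where transcripts listed in all files held at least 90% of its TPM, and those transcripts were summed. The genes, lists and settings were chosen with earlier results of these data known. Every gene of the set is accounted for, called genes of the pathway lists are named, and marker lists are given by sums and counts with examples picked after their values were seen. Alternatives were median scaling, a pseudocount of 0.1, other filters on low values, no trend, other listing limits, a replicate block and leaving out each library.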

Additional observations from a re-analysis of the deposited data

How the results depend on the processing

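The median log2 change of the ribosome biogenesis genes stayed above 0 under every alternative run, but single calls sat at the threshold. The median lay between 0.19 and 0.28 for the 40 genes over 3 libraries. Over 4 libraries it lay between 0.27 and 0.37, for only 4 genes, or 6 counting any listed transcript. Filters on low values, the trend setting and the replicate block cannot alter a gene's log2 change here, so they were no check of the median. Gar1 was the only gene of the set called over 3 libraries, and 0 were called with median scaling, a pseudocount of 0.1, no trend, no filter on low values or a filter of 1 TPM in 1 library, where 23, 19, 12, 13 and 15 of the 40 had an unadjusted p under 0.05 by limma. Over 4 libraries 2 genes, Gar1 and Brix1, were called with median scaling. Leaving out anti-CD71 replicate 1 leaves the same libraries as the comparison over 3 libraries, so it was no further check of these genes. Leaving out control replicate 2 put Heatr1, Noc4l, Pes1 and Utp20 below the remaining control and Polr1a level with it, and leaving out control replicate 1 put Nob1 below.

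Counts over all genes moved more, and the cause was not tested. Over 3 libraries limma called 57 genes higher and 286 lower, against 38 and 187 with median scaling, 13 and 22 with no trend, 256 and 6 with no filter, and 60 and 12 with a filter of 1 TPM in 1 library. Over 4 libraries 13 were called higher and 54 lower, against 21 and 36 with median scaling, 1 and 3 with no trend, 1 and 0 with no filter (435 at an unadjusted p under 0.05), 1 and 7 with a filter of 1 TPM in 1 library, and 2 and 2 counting any listed transcript. Leaving out 1 library gave between 1 and 35 higher and between 0 and 61 lower. Without control replicate 1 the counts were 1 and 0, and without control replicate 2 they were 2 and 0.

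No pairing of the libraries by replicate number was seen: the difference between replicates 1 and 2 in the anti-CD71 group correlated with that in the controls at -0.006 across 1563 genes. This value cannot exclude a pairing that is weak beside the spread between libraries. With the replicate number as a block, limma called 2 genes higher and 1 lower over 4 libraries, and 0 of the 4 ribosome biogenesis genes. Over 3 libraries no such fit could be made, since the groups share 1 number. A listing share averaged per library, added after the data were seen, left Brix1 and Gar1 just above the threshold of 0.05 by limma. With 1 anti-CD71 library for 36 of the 40 genes, differences between treated tumours were not measured.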
